A study of Mus musculus with 9 samples.

Results

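The genes described here are the semaphorins and their receptors, the plexins and neuropilins. They were followed in the mouse periocular neural crest (pNC) and in the embryonic cornea, whose stroma and endothelium form from the pNC. The 31 genes were taken by symbol, 20 semaphorins as ligands and 11 receptors (9 plexins and 2 neuropilins), and all were found by Entrez Gene identifier among the 19369 genes listed in at least 1 sample. RNA-Seq had been run on 9 samples of wild-type C57BL/6 embryos, 3 biological replicates of pNC at E10.5 (E for embryonic day), 3 of cornea at E14.5 and 3 of cornea at E16.5, and E10.5 served as the baseline. Tissue of several eyes was pooled in each sample, and the youngest tissue had been freed of ectoderm, lens vesicle and optic cup after dispase treatment. The corneal epithelium derives from the surface ectoderm, so the cornea samples hold a tissue that was dissected away at E10.5. A sample is therefore an average over embryos and over every cell type left in the dissected tissue. A higher or lower value may reflect more or fewer cells of a type, or more or less RNA per cell, which cannot be told apart.

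Semaphorins are guidance cues that steer axons, neural crest cells and endothelial cells, mostly by repulsion. Class 3 semaphorins are secreted and mostly bind neuropilins, which have no signaling domain of their own and pair with A-type plexins, while classes 4 to 6 are transmembrane and *Sema7a* is held by a lipid anchor. Plexins act as GTPase-activating proteins toward small Ras-family GTPases, and neuropilins also bind vascular endothelial growth factors (VEGFs). In the eye these genes are known for guiding corneal nerves, retinal axons and vessels, and for directing neural crest migration.

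Expression is given as the deposited FPKM (fragments per kilobase of transcript, scaled to the fragments mapped in the sample), with the mean ± SD of each stage (n = 3). Differences are log2 fold changes from edgeR's quasi-likelihood test on the rounded expected counts, scaled by TMM, and a gene was called higher or lower at a Benjamini-Hochberg adjusted p under 0.05 over all 14771 genes tested if the log2 fold change was also 1 or more in size. Expected counts totaled 8745161 to 9069023 per sample, and every one of the 31 genes passed the filter on low counts. TMM factors were 0.918 to 0.940 in the E16.5 samples and exceeded 1 in all others, so FPKM understates E16.5 levels relative to the tests. E14.5 replicate 1 stood apart from its replicates, being the E14.5 sample nearest to the E16.5 mean for 21 of 30 semaphorin, plexin and neuropilin genes whose mean FPKM reached 1 in some stage (55.7% of all such genes). E10.5 replicate 3 was the lowest E10.5 sample for 24 of the 30 (39.0% of all such genes).

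The tissue labels were set against marker genes. Of 10 corneal epithelial markers such as *Krt5* and *Cdh1*, 10 were higher at E14.5 and at E16.5 than at E10.5 and 6 rose further at E16.5, with summed FPKM of 37.2 to 51.6, 691 to 2193 and 5353 to 7731 at the successive stages and no marker at 0. Of 8 stromal markers such as *Kera* and *Lum*, 8, 8 and 6 were higher in the same comparisons, with sums of 111 to 168, 2214 to 5740 and 8929 to 10798, *Ptgds* being at 0 at E10.5. Of 12 vascular endothelial markers, 10 were lower at E14.5, 11 at E16.5 and 11 between the cornea stages, with sums of 196 to 304, 81.6 to 134 and 29.1 to 47.0 and none at 0, and *Kdr* was called in no comparison. Of 10 neuronal markers, 8 and 9 were lower in the cornea stages than at E10.5, with sums of 203 to 297, 33.7 to 54.0 and 43.3 to 46.3 and none at 0. E10.5 replicate 3 had the lowest vascular, neuronal and stromal sums of its stage, and E14.5 replicate 1 the highest epithelial and stromal sums of its stage.

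**Figure D1:**
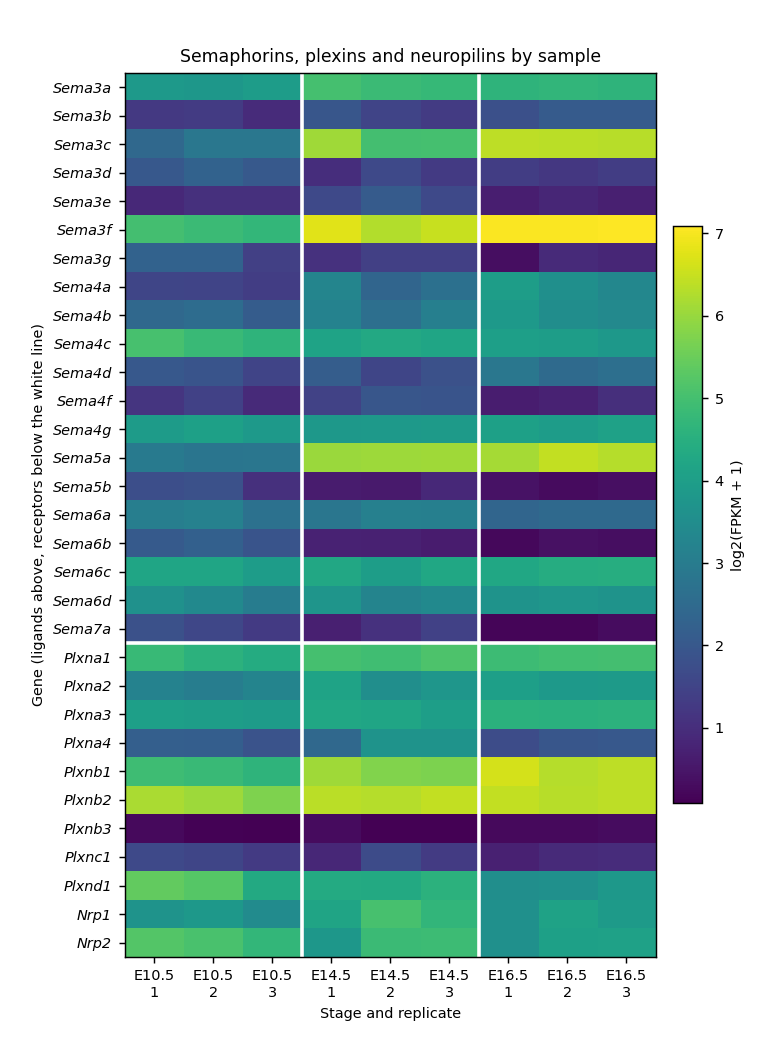
Heat map of log2(FPKM + 1) for the 20 semaphorins (above the white line) and 11 receptors (below it) in the 9 samples, columns being stage and replicate. *Sema3f*, *Sema3c*, *Sema5a*, *Plxnb1* and *Plxnb2* are the brightest rows at E16.5, and *Plxnb3* is dark throughout.

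Summed together, the 31 genes took a larger part of the expected counts in the cornea than in the pNC. They held 0.199% to 0.262% of the expected counts in the pNC, 0.389% to 0.415% in the E14.5 cornea and 0.449% to 0.450% in the E16.5 cornea, and these ranges did not overlap. Ligands made up most of the difference in level, as their summed FPKM went from 155 ± 16.03 in the pNC to 323 ± 40.3 and then 417 ± 6.27 in the cornea, while the plexin sum went from 174 ± 29.4 to 232 ± 8.60 and 251 ± 13.3. Mean FPKM rose most by E16.5 in *Sema3c* (5.67 to 81.1), *Sema3f* (28.2 to 132), *Sema5a* (6.31 to 77.7) and *Plxnb1* (26.8 to 86.0). Of the 31 genes, 12 were called in no comparison, and some were lower in the cornea. Genes whose mean FPKM reached 1 numbered 30, 28 and 23 at the successive stages, and those that reached 20 numbered 7, 10 and 8. The repertoire thus had fewer genes above an FPKM of 1 at E16.5 while the sum of its levels was higher. Of the genes that dropped under 1 from E10.5 to E16.5, *Sema3g*, *Sema5b*, *Sema6b* and *Sema7a* were called lower. *Sema3e* (1.01 to 0.673), *Sema4f* (1.27 to 0.770) and *Plxnc1* (1.83 to 0.843) were not called. The share of all genes reaching these levels was not computed, so the counts are not read as particular to the family.

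By stage, 9 of the 31 genes were higher at E14.5 than at E10.5 (13.6% of all genes tested were called higher) and 4 were lower (7.97% of all genes). The 9 were *Sema3a*, *Sema3c*, *Sema3e*, *Sema3f*, *Sema4a*, *Sema5a*, *Plxna4*, *Plxnb1* and *Nrp1*, and the 4 were *Sema3d*, *Sema3g*, *Sema5b* and *Sema6b*. At E16.5, 8 were higher than at E10.5 (19.4% of all genes) and 6 were lower (15.4%). *Sema3b*, *Sema4b* and *Sema4d* were among the 8 in addition to *Sema3c*, *Sema3f*, *Sema4a*, *Sema5a* and *Plxnb1*, and *Sema7a* and *Plxnd1* joined the 4 that were already lower at E14.5. Between the cornea stages, 3 rose (*Sema3c*, *Sema4a* and *Sema4d*, against 6.26% of all genes) and 5 fell (*Sema3e*, *Sema4f*, *Sema6b*, *Sema7a* and *Plxna4*, against 5.47%). The shares of genes called higher at E14.5 (9 of 31) and lower between the cornea stages (5 of 31) lie above those of all genes, and the share called lower at E16.5 against E10.5 lies close to it. By adjusted p alone, with no fold-change minimum, 14 were higher (28.9% of all genes) and 6 lower (27.5%) at E14.5, 16 higher (35.2%) and 10 lower (34.7%) at E16.5, and 10 rose (17.5%) and 8 fell (17.5%) between the cornea stages. The median log2 fold change of the 31 genes was 0.17, 0.41 and 0.13 in the 3 comparisons, beside 0.01, 0.00 and -0.02 for all genes tested.

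In all 35 calls every sample of the higher stage lay above every sample of the lower stage, as in 98.5% of the 10067 calls over all genes. Across the comparisons 19 of the 31 genes were called at least once, against 37.6% of all genes, and these were 15 of the 20 ligands and 4 of the 11 receptors. *Sema3c* and *Sema4a* rose in both steps (3.48% of all genes did), *Sema6b* fell in both (2.01%), and *Sema3e* and *Plxna4* were higher at E14.5 than at both other stages (0.826%). Without E14.5 replicate 1, 2 genes instead of 4 were lower at E14.5 than in the pNC and 5 instead of 3 rose between the cornea stages, and without E14.5 replicate 2 only 1 rose in that step. Both cornea comparisons with E10.5 share the E10.5 samples, so their values are not independent.

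**Figure D2:**
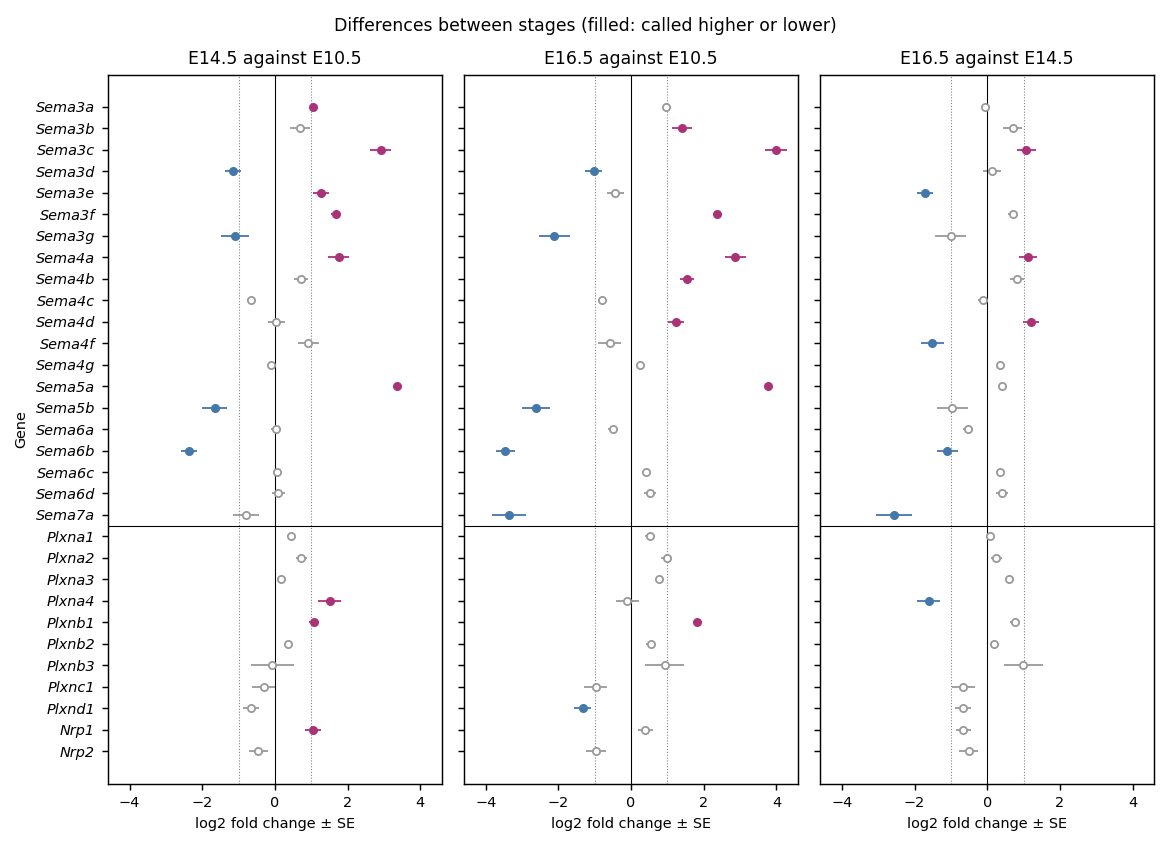
Log2 fold change ± SE (edgeR) of each gene for E14.5 against E10.5, E16.5 against E10.5 and E16.5 against E14.5, with filled points for genes called higher (purple) or lower (blue), dotted lines at -1 and 1, and a horizontal line between ligands and receptors. The semaphorins spread from -3.46 (*Sema6b*) to 3.99 (*Sema3c*) at E16.5 against E10.5, and the receptors from -1.33 (*Plxnd1*) to 1.83 (*Plxnb1*).

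Class 3 semaphorins, the secreted ligands, carried most of the increase, with a summed FPKM of 56.4 ± 2.96 in the pNC, 171 ± 37.2 in the E14.5 cornea and 243 ± 1.44 in the E16.5 cornea. E14.5 replicate 1 had the highest class 3 sum of its stage (213 beside 144 and 154), as it had the highest epithelial sum (2193 beside 691 and 816) and stromal sum (5740 beside 2214 and 3213), and the part of these tissues in the class 3 values was not tested. *Sema3f*, a ligand with a preference for *Nrp2* that repels axons and crest cells, was the most abundant semaphorin at every stage. Its FPKM in replicates 1 to 3 was 31.1, 28.1 and 25.4 in the pNC, 108, 76.9 and 89.9 in the E14.5 cornea and 131, 131 and 135 in the E16.5 cornea. All cornea samples lay above all pNC samples, and the E16.5 samples above the E14.5 samples. *Sema3f* was 3.21-fold higher at E14.5 and 5.19-fold higher at E16.5 than in the pNC, with log2 fold changes of 1.68 (SE 0.13, edgeR, Benjamini-Hochberg adjusted p = 2.21e-06) and 2.38 (SE 0.13, edgeR, Benjamini-Hochberg adjusted p = 1.41e-07). Between the cornea stages its log2 difference of 0.69 did not reach the fold-change minimum.

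*Sema3c*, which guides neural crest cells into the cardiac outflow tract, had the largest rise of the family at E16.5. Its FPKM was 4.50, 6.26 and 6.26 in the pNC, 67.2, 30.6 and 31.5 in the E14.5 cornea and 82.0, 81.8 and 79.5 in the E16.5 cornea. At E14.5, replicate 1 stood at more than the level of the other replicates combined and nearer to the E16.5 samples, but the lowest E14.5 sample was still above the highest E10.5 sample. The log2 fold change was 2.91 (SE 0.28, edgeR, Benjamini-Hochberg adjusted p = 1.37e-05) at E14.5 and 3.99 (SE 0.29, edgeR, Benjamini-Hochberg adjusted p = 8.34e-07) at E16.5, a 15.8-fold difference. The further rise between the cornea stages, 1.08 (SE 0.26, edgeR, Benjamini-Hochberg adjusted p = 0.00881), was 0.91 and not called with library totals in place of TMM, 0.88 without E14.5 replicate 2 and 0.91 without E14.5 replicate 3. Without E14.5 replicate 1 it was 1.54 and called.

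Within the class, *Sema3f* held a near constant part, 49.98 ± 2.78% of the summed class 3 FPKM at E10.5 and 54.3 ± 0.717% at E16.5, while *Sema3c* and *Sema3a* exchanged places. The part held by *Sema3c* was 7.69%, 10.9% and 11.8% in the E10.5 samples, 31.5%, 21.2% and 20.4% at E14.5 and 33.9%, 33.5% and 32.5% at E16.5. Stages did not overlap in this share, and each pair of stages gave an exact two-sided permutation p of 0.1, the smallest that 3 against 3 samples allow. The part of *Sema3a* went from 24.5 ± 2.62% to 17.0 ± 2.26% and 9.95 ± 0.177%.

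**Figure D3:**
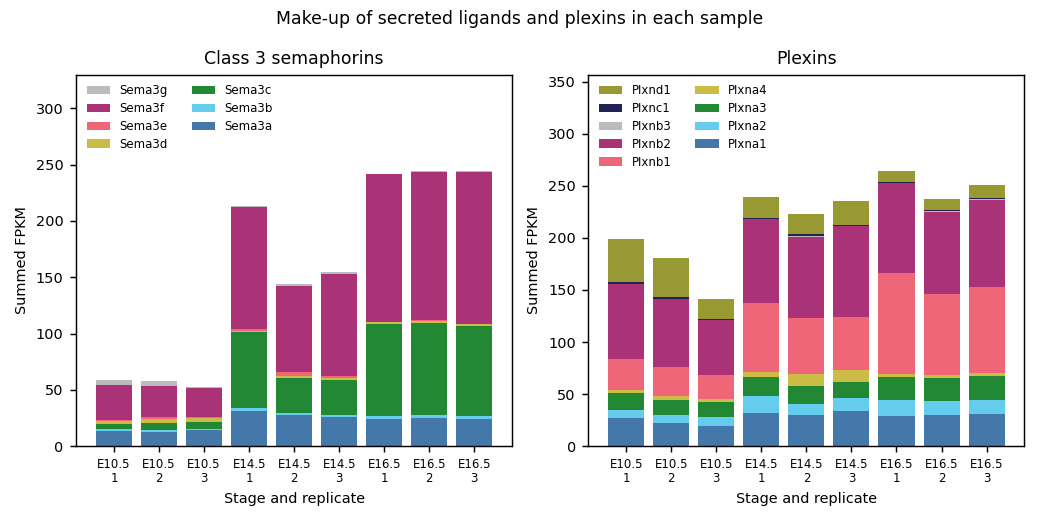
Summed FPKM of the 7 class 3 semaphorins (left) and the 9 plexins (right) in each sample, as stacked bars in which each color is a gene. The class 3 bars reach 53.0 to 58.5 in the pNC and 242 to 244 in the E16.5 cornea, mostly through *Sema3f* and *Sema3c*, and the *Plxnb1* segment widens across the plexin bars while the *Plxnd1* segment narrows.

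*Sema3a*, the collapsin that repels sensory axons through *Nrp1* and A-type plexins, was called higher at E14.5, by about the fold-change minimum. FPKM values were 13.8, 12.9 and 14.54 in the pNC, 31.4, 27.7 and 26.3 in the E14.5 cornea and 24.0, 24.8 and 23.9 in the E16.5 cornea, with every cornea sample above every pNC sample. The log2 fold change was 1.04 (SE 0.09, edgeR, Benjamini-Hochberg adjusted p = 4.31e-06) at E14.5, which came to 0.97 without E14.5 replicate 1 and 0.99 without E10.5 replicate 2, and 0.97 (SE 0.09, edgeR, Benjamini-Hochberg adjusted p = 2.7e-06) at E16.5, short of the minimum. *Sema3b*, another secreted neuropilin ligand, was at a low level, with 1.39, 1.48 and 0.940 in the pNC, 2.88, 1.88 and 1.47 in the E14.5 cornea and 2.49, 3.29 and 3.29 in the E16.5 cornea. The E14.5 samples overlapped both other stages, while all E16.5 samples were above all E10.5 samples, with a log2 fold change of 1.39 (SE 0.28, edgeR, Benjamini-Hochberg adjusted p = 0.000963).

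The remaining class 3 ligands were low and took different courses. *Sema3d*, a secreted guidance cue, had FPKM values of 3.07, 3.85 and 3.10 in the pNC, 0.990, 2.12 and 1.43 in the E14.5 cornea and 1.55, 1.34 and 1.54 in the E16.5 cornea, lower in every cornea sample than in any pNC sample. It was 2.23-fold lower at E14.5 and 2.04-fold lower at E16.5, with log2 fold changes of -1.16 (SE 0.23, edgeR, Benjamini-Hochberg adjusted p = 0.00148) and -1.03 (SE 0.23, edgeR, Benjamini-Hochberg adjusted p = 0.00202). Either call ended when a library was left out, at -0.92 without E14.5 replicate 1 and at -0.92 and -0.97 without E10.5 replicate 2 and E16.5 replicate 2. *Sema3e*, which binds *Plxnd1* directly and without neuropilin to pattern vessels, was transient, with 0.860, 1.09 and 1.07 in the pNC, 2.08, 3.25 and 2.09 in the E14.5 cornea and 0.590, 0.8 and 0.630 in the E16.5 cornea. The E14.5 samples were all above those of the other stages, with log2 fold changes of 1.27 (SE 0.21, edgeR, Benjamini-Hochberg adjusted p = 0.0005) relative to E10.5 and -1.71 (SE 0.22, edgeR, Benjamini-Hochberg adjusted p = 0.000675) from E14.5 to E16.5.

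*Sema3g*, a class 3 ligand known from arterial endothelium, was lower at both cornea stages than at E10.5, with FPKM values of 3.84, 3.89 and 1.68 in the pNC, 1.11, 1.65 and 1.66 in the E14.5 cornea and 0.280, 0.880 and 0.790 in the E16.5 cornea. The stages did not overlap, but E10.5 replicate 3, at 1.68, lay just above the highest E14.5 sample, at 1.66. The log2 fold change was -1.10 (SE 0.38, edgeR, Benjamini-Hochberg adjusted p = 0.0290) at E14.5 and -2.11 (SE 0.42, edgeR, Benjamini-Hochberg adjusted p = 0.000915) at E16.5, on 9 to 29 counts per E16.5 sample. The E14.5 call was lost without E10.5 replicate 1, E10.5 replicate 2 or E14.5 replicate 1, at -0.93, -0.92 and -0.92. The vascular marker sums given above fell at the same stages and were also lowest in E10.5 replicate 3, and their part in the *Sema3g* values was not tested. That sample was also the lowest of its stage for the neuronal, stromal, optic cup, lens, myeloid, red cell and glial marker sums. It was not the lowest for the epithelial, muscle or periocular crest sums.

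*Sema3d*, *Sema3a*, *Sema3e* and *Sema3c* lie in this order on chromosome 5 of GRCm38, *Sema3d* at 12383161 to 12588953, *Sema3a* at 13124822 to 13603485, *Sema3e* at 14025276 to 14256689 and *Sema3c* at 17574816 to 17730268. These neighbors did not share a course: *Sema3d* was lower in the cornea, *Sema3a* and *Sema3c* rose by E14.5 and their E16.5 samples stayed above all pNC samples, and *Sema3e* rose by E14.5 and fell again.

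Among class 4 semaphorins, which are transmembrane, the summed FPKM was much the same, at 52.1 ± 6.32, 49.4 ± 2.52 and 58.7 ± 6.70 at the successive stages, but its makeup was not. *Sema4c*, a ligand of *Plxnb2* and next to *Sema3f* the most abundant semaphorin of the pNC, had FPKM values of 31.9, 27.6 and 23.9 in the pNC, 16.7, 19.0 and 17.2 in the E14.5 cornea and 15.4, 14.7 and 13.1 in the E16.5 cornea. Every cornea sample was below every pNC sample, but the log2 fold changes of -0.67 (SE 0.11, edgeR, Benjamini-Hochberg adjusted p = 0.000479) and -0.80 (SE 0.11, edgeR, Benjamini-Hochberg adjusted p = 7.51e-05) did not reach the fold-change minimum. *Sema4a*, which acts on T cells and is needed by photoreceptors, rose at each stage, with 1.95, 1.86 and 1.57 in the pNC, 8.61, 4.16 and 5.31 in the E14.5 cornea and 14.8, 10.97 and 8.96 in the E16.5 cornea. No stages overlapped, and the log2 fold changes were 1.76 (SE 0.29, edgeR, Benjamini-Hochberg adjusted p = 0.000482) at E14.5, 2.87 (SE 0.29, edgeR, Benjamini-Hochberg adjusted p = 6.37e-06) at E16.5 and 1.12 (SE 0.25, edgeR, Benjamini-Hochberg adjusted p = 0.00704) between them. The last was not called with library totals, at 0.95, or without E14.5 replicate 2 or E16.5 replicate 1, at 0.89 and 0.91.

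*Sema4b*, a further class 4 member, had FPKM values of 4.43, 4.87 and 3.36 in the pNC, 8.18, 5.25 and 7.60 in the E14.5 cornea and 13.4, 10.4 and 9.39 in the E16.5 cornea, and the E16.5 samples exceeded all others, with a log2 fold change of 1.53 (SE 0.20, edgeR, Benjamini-Hochberg adjusted p = 4.61e-05) relative to E10.5. *Sema4d*, the ligand of *Plxnb1*, changed after E14.5, with 3, 2.77 and 1.85 in the pNC, 3.44, 1.93 and 2.54 in the E14.5 cornea and 6.30, 4.72 and 5.24 in the E16.5 cornea. Its E10.5 and E14.5 samples overlapped, and at E16.5 it was 2.36-fold higher than at E10.5 and 2.30-fold higher than at E14.5, with log2 fold changes of 1.24 (SE 0.23, edgeR, Benjamini-Hochberg adjusted p = 0.000576) and 1.20 (SE 0.23, edgeR, Benjamini-Hochberg adjusted p = 0.00310). In the E14.5 and E16.5 groups alike, replicate 1 was the highest sample for *Sema4a*, *Sema4b* and *Sema4d*, and it also had the highest epithelial marker sum of its stage (2193 and 7731). Its lens and glial marker sums were likewise the highest of both stages. The part of these tissues in the class 4 values was not tested.

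*Sema4f*, also transmembrane, had FPKM values of 1.23, 1.70 and 0.880 in the pNC, 1.78, 2.88 and 2.72 in the E14.5 cornea and 0.560, 0.700 and 1.05 in the E16.5 cornea. All E14.5 samples lay above both other stages, and the fall to E16.5 was called at -1.51 (SE 0.31, edgeR, Benjamini-Hochberg adjusted p = 0.00411), while the difference from E10.5 of 0.92 was not. Without E14.5 replicate 1 that difference was 1.11 and called. *Sema4g* was even across development, at 14.4 ± 1.18, 13.6 ± 0.407 and 15.5 ± 0.919 at the successive stages, and was called in no comparison.

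Class 5 semaphorins, which carry thrombospondin repeats, went opposite ways. *Sema5a*, which inhibits retinal axons through *Plxna1* and *Plxna3*, had FPKM values of 6.79, 6.01 and 6.14 in the pNC, 64.0, 65.5 and 67.6 in the E14.5 cornea and 69.6, 85.7 and 77.9 in the E16.5 cornea. All cornea samples were far above all pNC samples, and most of the difference was already present at E14.5. It was 10.3-fold higher at E14.5 and 13.6-fold higher at E16.5 than in the pNC, with log2 fold changes of 3.37 (SE 0.11, edgeR, Benjamini-Hochberg adjusted p = 1.88e-08) and 3.77 (SE 0.12, edgeR, Benjamini-Hochberg adjusted p = 1.03e-08). Unlike *Sema3c*, E14.5 replicate 1 did not stand apart for *Sema5a*, at 64.0 beside 65.5 and 67.6. *Sema5b* went the other way from a low start, with 2.37, 2.51 and 1.08 in the pNC, 0.530, 0.500 and 0.870 in the E14.5 cornea and 0.350, 0.220 and 0.290 in the E16.5 cornea, and its pNC samples exceeded all cornea samples, with log2 fold changes of -1.66 (SE 0.35, edgeR, Benjamini-Hochberg adjusted p = 0.00228) and -2.62 (SE 0.39, edgeR, Benjamini-Hochberg adjusted p = 0.000123). The E16.5 values of *Sema5b* rest on 9 to 14 counts per sample.

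Class 6 semaphorins, transmembrane ligands of A-type plexins, kept a steady sum of 35.9 ± 5.32, 35.1 ± 2.91 and 36.5 ± 2.04. *Sema6c* was the most abundant, with FPKM values of 17.2, 17.4 and 14.4 in the pNC, 18.4, 14.8 and 18.2 in the E14.5 cornea and 17.9, 20.4 and 20.7 in the E16.5 cornea. These samples overlapped between E10.5 and E14.5, and the log2 difference at E16.5 was 0.41 (SE 0.12, edgeR, Benjamini-Hochberg adjusted p = 0.00809) and not called. *Sema6d* and *Sema6a* were likewise called in no comparison, at 9.37 ± 2.11, 10.1 ± 1.91 and 12.1 ± 0.445 and at 6.98 ± 1.33, 7.21 ± 0.908 and 4.45 ± 0.217 in the order of the stages. *Sema6b* fell in both steps, with 3.20, 3.66 and 2.76 in the pNC, 0.680, 0.660 and 0.540 in the E14.5 cornea and 0.180, 0.330 and 0.270 in the E16.5 cornea, and the stages did not overlap. It was 5.12-fold lower at E14.5 and 10.98-fold lower at E16.5 than in the pNC, with log2 fold changes of -2.36 (SE 0.22, edgeR, Benjamini-Hochberg adjusted p = 1.11e-05) and -3.46 (SE 0.25, edgeR, Benjamini-Hochberg adjusted p = 8.03e-07), and the step between the cornea stages was -1.10 (SE 0.29, edgeR, Benjamini-Hochberg adjusted p = 0.0144). The E16.5 values rest on 6 to 11 counts per sample, and that step was not called without E16.5 replicate 1, at -0.89.

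*Sema7a*, the lipid-anchored ligand of *Plxnc1* and integrins, was called lower at E16.5 against both earlier stages, with FPKM values of 2.52, 1.97 and 1.44 in the pNC, 0.620, 1.10 and 1.73 in the E14.5 cornea and 0.140, 0.140 and 0.240 in the E16.5 cornea. The E10.5 and E14.5 samples overlapped, with a log2 difference of -0.79 that was not called, whereas all E16.5 samples were below both. The log2 fold change was -3.35 (SE 0.47, edgeR, Benjamini-Hochberg adjusted p = 7.45e-05) relative to E10.5 and -2.56 (SE 0.49, edgeR, Benjamini-Hochberg adjusted p = 0.00312) relative to E14.5, on 4 to 7 counts per E16.5 sample. Neuronal marker sums were lower in the cornea at both stages, and their part in the falls of *Sema5b*, *Sema6b* and *Sema7a* was not tested.

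**Figure D4:**
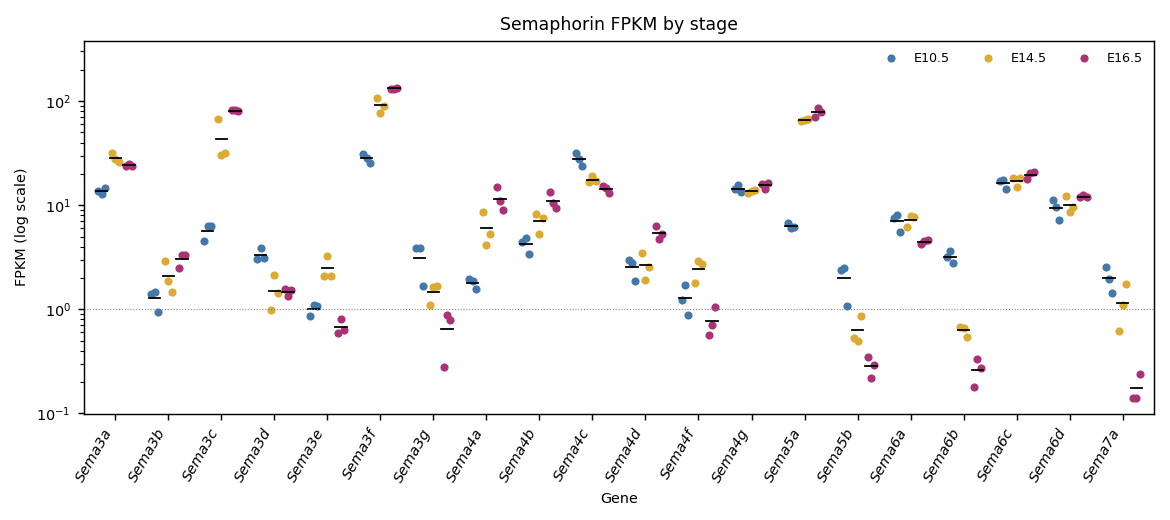
FPKM of the 20 semaphorins on a log axis, with a point for each of the 3 samples of a stage (blue E10.5, yellow E14.5, purple E16.5), a black bar at the stage mean and a dotted line at an FPKM of 1. *Sema3c*, *Sema3f* and *Sema5a* end at mean FPKM of 81.1, 132 and 77.7, while the E16.5 samples of *Sema5b*, *Sema6b* and *Sema7a* lie between 0.14 and 0.35.

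To show the DNA upstream of ligands with opposite courses, the 250 bases before the start site are printed for 2 ligands that rose (*Sema3c*, *Sema5a*), 1 that was transient (*Sema3e*) and 2 that fell (*Sema3g*, *Sema6b*), 5' to 3' on the gene's strand from RefSeq on GRCm38.p6. They are chr5:17574566-17574815 (plus strand), chr15:32244563-32244812 (plus), chr5:14025026-14025275 (plus), chr14:31217623-31217872 (plus) and chr17:56140344-56140593 (minus). Capitals mark matches on either strand to the GC box GGGCGG, read by Sp and Klf factors, and to the AP-2 motif GCCNNNGGC. Matches may overlap each other.
Sema3c: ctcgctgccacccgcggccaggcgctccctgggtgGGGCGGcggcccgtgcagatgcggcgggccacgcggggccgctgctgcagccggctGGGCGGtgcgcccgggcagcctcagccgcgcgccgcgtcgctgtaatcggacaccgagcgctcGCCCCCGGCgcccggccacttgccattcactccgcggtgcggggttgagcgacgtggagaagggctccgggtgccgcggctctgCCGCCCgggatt
Sema5a: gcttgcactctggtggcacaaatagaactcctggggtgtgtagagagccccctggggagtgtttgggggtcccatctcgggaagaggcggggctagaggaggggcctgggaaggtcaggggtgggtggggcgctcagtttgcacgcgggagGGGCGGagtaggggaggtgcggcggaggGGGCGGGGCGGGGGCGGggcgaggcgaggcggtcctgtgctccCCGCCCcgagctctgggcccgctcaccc
Sema3e: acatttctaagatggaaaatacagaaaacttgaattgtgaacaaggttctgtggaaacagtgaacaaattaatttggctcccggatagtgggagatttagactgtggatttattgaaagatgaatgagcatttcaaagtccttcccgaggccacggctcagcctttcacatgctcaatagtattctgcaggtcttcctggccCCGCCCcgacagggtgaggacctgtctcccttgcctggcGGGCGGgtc
Sema3g: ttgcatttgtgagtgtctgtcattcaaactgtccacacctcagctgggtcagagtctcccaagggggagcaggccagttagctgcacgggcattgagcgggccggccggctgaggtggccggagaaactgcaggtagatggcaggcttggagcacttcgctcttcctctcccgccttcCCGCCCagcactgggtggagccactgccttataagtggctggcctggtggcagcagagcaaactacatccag
Sema6b: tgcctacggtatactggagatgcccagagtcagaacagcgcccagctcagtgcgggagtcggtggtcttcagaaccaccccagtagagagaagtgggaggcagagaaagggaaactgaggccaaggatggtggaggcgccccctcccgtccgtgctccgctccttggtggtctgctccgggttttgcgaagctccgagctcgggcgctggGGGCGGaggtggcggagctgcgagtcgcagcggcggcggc

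*Sema3c* held 3 GC boxes and 1 AP-2 match, *Sema5a* 5 GC boxes, *Sema3e* 2, *Sema3g* 1 and *Sema6b* 1. CpG dinucleotides in these windows numbered 39 in *Sema3c*, 17 in *Sema5a*, 7 in *Sema3e*, 8 in *Sema3g* and 20 in *Sema6b*. Windows were found for 26 of the 31 genes (37 windows, several genes having more than 1 start), and not for *Sema3b*, *Sema3f*, *Sema6a*, *Plxna1* and *Plxna4*. A GC box stood in 27 of the 37 windows, beside 32.7% of all 32851 windows of that length, and an AP-2 match in 8, beside 13.7%. The median window held 13 CpG dinucleotides and 64.0% G and C bases, against 6 and 52.4% over all windows. TATAAA, the forkhead motif TGTTTAC and the bicoid-type homeobox motif TAATCC were in none of the 37 on either strand (12.4%, 3.17% and 6.25% of all windows), and CACCTG, an E-box bound by Snail and Zeb factors, was in 5 (17.2%). These matches describe the letters only, and the printed windows do not stand for the rest. *Sema3a*, called higher at E14.5, held 0 GC boxes. *Sema7a*, called lower at E16.5, held 2 GC boxes and 2 AP-2 matches, and *Sema4g*, called in no comparison, held 3 of each. A further *Sema6b* window, not printed, held 1 GC box. Whether matches go with course was not tested.

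Of the 11 receptors, 4 were called in any comparison, close to the 37.6% of all genes (*Plxna4*, *Plxnb1* and *Nrp1* higher at E14.5, *Plxnd1* lower at E16.5). The B-type plexins, receptors of class 4 semaphorins, were the most abundant, with a summed FPKM of 90.2 ± 13.2, 139 ± 8.01 and 169 ± 13.6 at the successive stages. *Plxnb1*, the *Sema4d* receptor, had FPKM values of 29.3, 27.6 and 23.7 in the pNC, 66.9, 53.4 and 51.0 in the E14.5 cornea and 97.5, 77.8 and 82.5 in the E16.5 cornea. Stages did not overlap, and replicate 1 was the highest sample of each stage. *Plxnb1* was 3.55-fold higher at E16.5 than in the pNC, with log2 fold changes of 1.07 (SE 0.13, edgeR, Benjamini-Hochberg adjusted p = 5.7e-05) at E14.5 and 1.83 (SE 0.13, edgeR, Benjamini-Hochberg adjusted p = 7.01e-07) at E16.5. At E14.5 it was 0.95 without E14.5 replicate 1 and 0.99 without E10.5 replicate 3, under the fold-change minimum. Its part of the summed plexin FPKM went from 15.6 ± 1.04% to 24.5 ± 3.22% and 34.2 ± 2.36%. Epithelial marker sums were higher in the cornea as well and highest in replicate 1 of both cornea stages. At E10.5 replicate 1 had the lowest epithelial sum (37.2 beside 51.6 and 47.9). Lens and glial marker sums too were highest in replicate 1 of both cornea stages. The part of these tissues in the *Plxnb1* values was not tested.

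*Plxnb2*, a *Sema4c* receptor, was the most abundant receptor of the pNC, with FPKM values of 72.1, 65.6 and 52.0 in the pNC, 80.4, 78.2 and 86.6 in the E14.5 cornea and 86.3, 79.3 and 83.4 in the E16.5 cornea. Cornea samples were all above the pNC samples, but the log2 difference of 0.54 (SE 0.12, edgeR, Benjamini-Hochberg adjusted p = 0.00186) at E16.5 was small and not called. Its part of the plexin sum was 36.4 ± 0.290% at E10.5 and 33.1 ± 0.386% at E16.5. *Plxnb3*, a further B-type plexin, was close to the detection limit, at 0.120 ± 0.0700, 0.117 ± 0.0896 and 0.210 ± 0.0265 and on 3 to 13 counts per sample.

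A-type plexins, the signaling partners of neuropilins, had a summed FPKM of 49.3 ± 4.66, 71.3 ± 1.88 and 69.3 ± 1.30. *Plxna1*, among the 3 most abundant receptors of the cornea, had FPKM values of 27.1, 22.9 and 19.9 in the pNC, 31.5, 29.9 and 34.2 in the E14.5 cornea and 28.7, 30.1 and 30.8 in the E16.5 cornea. All cornea samples exceeded the pNC samples, with a log2 difference of 0.51 (SE 0.12, edgeR, Benjamini-Hochberg adjusted p = 0.00224) at E16.5 that was not called. *Plxna2* and *Plxna3* had mean FPKM of 7.98 ± 0.643, 13.4 ± 3.12 and 14.2 ± 1.06 and of 14.7 ± 0.675, 16.7 ± 1.61 and 22.5 ± 0.514 at the 3 stages, and log2 differences at E16.5 of 0.98 (SE 0.15, edgeR, Benjamini-Hochberg adjusted p = 0.000125) and 0.76 (SE 0.08, edgeR, Benjamini-Hochberg adjusted p = 8.81e-06), short of the fold-change minimum. Without E10.5 replicate 3 or E16.5 replicate 2 the *Plxna2* difference was 1.02 and called.

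*Plxna4*, the A-type plexin used by *Sema3a* and class 6 ligands in sensory neurons, was the exception, with FPKM values of 3.62, 3.51 and 2.66 in the pNC, 4.51, 11.8 and 11.7 in the E14.5 cornea and 2.30, 2.85 and 3.03 in the E16.5 cornea. E14.5 replicate 1 was well below the other E14.5 samples, and even so no E14.5 sample overlapped another stage. The log2 fold change was 1.504 (SE 0.31, edgeR, Benjamini-Hochberg adjusted p = 0.00180) from E10.5 to E14.5 and -1.61 (SE 0.31, edgeR, Benjamini-Hochberg adjusted p = 0.00326) from E14.5 to E16.5, and 1.84 and -1.95 without E14.5 replicate 1. *Plxna4* and *Sema3e* were thus the genes of the family that were highest at E14.5 in both tests.

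*Plxnd1*, the endothelial receptor of *Sema3e*, was the receptor called lower in the E16.5 cornea than in the pNC, with FPKM values of 41.2, 37.1 and 19.2 in the pNC, 19.7, 19.2 and 23.2 in the E14.5 cornea and 10.6, 11.2 and 13.1 in the E16.5 cornea. E10.5 replicate 3 was at about the E14.5 level, so E10.5 and E14.5 overlapped, while the E16.5 samples were below all others. The log2 fold change was -1.33 (SE 0.23, edgeR, Benjamini-Hochberg adjusted p = 0.000389) at E16.5 and -1.61 without E10.5 replicate 3. Its part of the plexin sum went from 18.3 ± 4.05% to 8.89 ± 0.840% and 4.66 ± 0.603%. Vascular markers were lower at the same stages and lowest in the same E10.5 sample (196 beside 287 and 304 in summed FPKM), and their part in the *Plxnd1* values was not tested. Most other marker sums were lowest in that E10.5 sample too, as given for *Sema3g*. *Plxnc1*, the *Sema7a* receptor, stayed low at 1.83 ± 0.346, 1.49 ± 0.695 and 0.843 ± 0.165, with a log2 difference at E16.5 of -0.97 (SE 0.32, edgeR, Benjamini-Hochberg adjusted p = 0.0184) that was not called and came to -1.12, and called, without E10.5 replicate 3 and with library totals.

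The neuropilins came closer to each other in level. *Nrp1*, the co-receptor of *Sema3a* and of VEGF-A, had FPKM values of 11.9, 13.2 and 10.1 in the pNC, 17.0, 31.8 and 24.9 in the E14.5 cornea and 11.2, 16.47 and 14 in the E16.5 cornea, and *Nrp2*, the co-receptor of *Sema3f* and of VEGF-C, had 35.9, 32.6 and 25.5 in the pNC, 12.9, 27.7 and 28.4 in the E14.5 cornea and 11.1, 15.8 and 15.9 in the E16.5 cornea. E14.5 replicate 1 was the lowest E14.5 sample for both. *Nrp1* was higher at E14.5 than at E10.5 without overlap, with a log2 fold change of 1.05 (SE 0.21, edgeR, Benjamini-Hochberg adjusted p = 0.00175), which was 0.84 without E14.5 replicate 2, 0.94 without E10.5 replicate 3 and called in neither. At E16.5 the *Nrp1* samples overlapped those of E10.5. All E16.5 samples of *Nrp2* were below all E10.5 samples, with a log2 difference of -0.97 (SE 0.27, edgeR, Benjamini-Hochberg adjusted p = 0.00791), just short of the fold-change minimum. It was called at -1.12 when scaled by library totals, at -1.09 and -1.14 by limma on log2(FPKM + 1) and log2(FPKM + 0.1), and by the NOISeq criterion. E14.5 replicate 1 also had the lowest sums of its stage for vascular markers (81.6 beside 130 and 134) and periocular crest markers (520 beside 758 and 799), vascular sums were lower at E16.5 than in the pNC, and their part in the neuropilin values was not tested.

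The ratio of *Nrp1* to *Nrp2* within a library was 0.332, 0.405 and 0.397 at E10.5, 1.32, 1.15 and 0.877 at E14.5 and 1.01, 1.04 and 0.880 at E16.5. Every cornea sample was above every pNC sample, although the levels of both genes varied between E14.5 samples. On the log2 scale the ratio was higher in the cornea than in the pNC, by 1.55 (E14.5) and 1.37 (E16.5), each with an exact two-sided permutation p of 0.1, the smallest possible with 3 against 3. The cornea stages overlapped, with an exact p of 0.5.

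**Figure D5:**
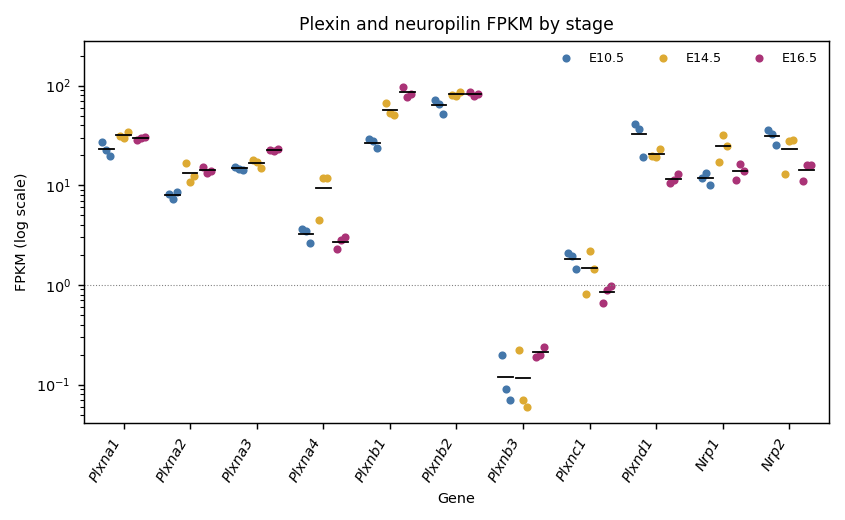
FPKM of the 9 plexins and 2 neuropilins on a log axis, with a point per sample (blue E10.5, yellow E14.5, purple E16.5), a black bar at the stage mean and a dotted line at an FPKM of 1. *Plxnb1* climbs to 77.8 to 97.5 at E16.5, *Plxnd1* descends to 10.6 to 13.1, and the lowest yellow points of *Plxna4*, *Nrp1* and *Nrp2* are all from E14.5 replicate 1.

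Known ligand and receptor pairs were set side by side by their log2 differences from the pNC, first for the E14.5 and then for the E16.5 cornea. *Sema4d* had 0.04 and 1.24, the second called, and its receptor *Plxnb1* had 1.07 and 1.83, both called. *Sema3f* had 1.68 and 2.38, both called, and its co-receptor *Nrp2* had -0.46 and -0.97, neither called. For *Sema3a* the values were 1.04 and 0.97 and for *Nrp1* 1.05 and 0.39, the first of each being called. *Sema3e* had 1.27, which was called, and -0.43, and *Plxnd1* had -0.66, with overlapping samples, and -1.33, which was called. *Sema7a* had -0.79 and -3.35, the second called, and *Plxnc1* had -0.31 and -0.97, neither called.

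Other genes of the pathway were taken as 1 list of 63 genes (co-receptors, VEGF ligands, plexin-bound exchange factors and kinases, GTPases, MICALs and CRMPs, cytoskeletal effectors), of which 62 were tested. Relative to the pNC, 10 were higher (13.6% of all genes) and 12 lower (7.97%) in the E14.5 cornea, against 11 (19.4%) and 17 (15.4%) in the E16.5 cornea. Between the cornea stages 5 rose (6.26%) and 4 fell (5.47%). Median log2 fold changes were -0.09, 0.13 and 0.04, beside 0.01, 0.00 and -0.02 for all genes.

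The collapsin response mediators, which relay *Sema3a* signals to microtubules in neurons, were mostly lower in the cornea. *Crmp1* had a mean FPKM of 27.7 ± 7.26, 1.25 ± 0.577 and 0.380 ± 0.150 at the successive stages and a log2 fold change at E16.5 against E10.5 of -6.03 (SE 0.36, edgeR, Benjamini-Hochberg adjusted p = 2.42e-07), and *Dpysl5* and *Dpysl4* had -3.40 and -2.25. Their relative *Dpysl3* was higher in the cornea, at 30.3 ± 5.27, 100.01 ± 13.2 and 63.9 ± 9.77, and was picked out here after its values were seen. Lower too were *Flt4*, the VEGF-C receptor that works with *Nrp2*, at 7.74 ± 3.08, 1.61 ± 0.681 and 0.127 ± 0.0379 and a log2 fold change of -5.75 (SE 0.50, edgeR, Benjamini-Hochberg adjusted p = 2.46e-06), and *Fscn1*, an actin-bundling protein, at 227 ± 34.4, 82.7 ± 12.4 and 60.8 ± 7.54. Of 5 VEGF ligands of neuropilins 3 were lower at both cornea stages (7.97% and 15.4% of all genes) and 0 were called higher. *Vegfa*, the most abundant of the 5, had a mean FPKM of 29.1 ± 3.74, 40.4 ± 8.09 and 51.9 ± 1.06. The summed FPKM of the 5 was 69.9 to 77.1, 61.2 to 75.4 and 77.25 to 78.9 at the successive stages. The neuronal and vascular marker lists fell with the genes that were lower, and their part was not tested.

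Higher in the cornea were *Limk2*, the kinase that inactivates cofilin, at 17.0 ± 1.505, 58.0 ± 3.28 and 73.9 ± 10.01 and a log2 fold change at E16.5 of 2.29 (SE 0.11, edgeR, Benjamini-Hochberg adjusted p = 8.15e-08), the actin-binding *Ablim1* at 7.32 ± 0.497, 25.5 ± 1.72 and 29.3 ± 1.20 and 2.15 (SE 0.08, edgeR, Benjamini-Hochberg adjusted p = 3e-08), and *Erbb2*, a receptor tyrosine kinase that associates with B-type plexins, at 14.9 ± 2.89, 33.5 ± 8.89 and 50.6 ± 1.78 and 1.92 (SE 0.19, edgeR, Benjamini-Hochberg adjusted p = 5.13e-06). Of the 11 GTPases and plexin targets, including *Rac1* and *Rhoa*, 1 was called in any comparison, beside 37.6% of all genes. It was *Rnd2*, which rose between the cornea stages at 1.16 (SE 0.36, edgeR, Benjamini-Hochberg adjusted p = 0.0270) and is named here after its values were seen. Replicate 1 was the highest sample of both cornea stages for *Limk2* (61.6 and 85.4) and *Erbb2* (43.4 and 52.7). The same held for the epithelial, lens and glial marker sums, and the part of these tissues was not tested.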

How the data were processed

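RNA-Seq libraries of pooled pNC (E10.5) and cornea (E14.5, E16.5) were sequenced by the study on an Illumina HiSeq instrument, and stages and replicate numbers were read from the sample labels. The submitters' notes name Bowtie2, HISAT, RSEM and the build GRCm38, with no versions stated. Values deposited by the authors are RSEM expected counts, which are estimates and not normalized, and FPKM, which divides by transcript length and by the fragments of the sample; the authors also deposited a transcript length for each gene (another unit, in bases). A gene not listed in a sample was taken as 0.

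Entrez identifiers were matched to RefSeq symbols of GRCm38.p6 (19312 of 19369). Expected counts were rounded, filtered with filterByExpr, scaled by TMM and fitted with edgeR 4.0.16 (R 4.3.3, limma 3.58.1) as 1 model of stage over 9 samples. DESeq2 1.42.0, limma on log2(FPKM + 1) and log2(FPKM + 0.1), a recomputed NOISeq criterion, library totals, no filter and each library left out were alternatives. Standard errors were derived from the F statistic. P-values measure the spread between these pooled samples. All 31 genes were named. Sample values were given for genes called in any comparison whose mean FPKM reached 1 in some stage, and for the 3 most abundant ligands and receptors of any stage. Of the pathway list, at most 8 called genes whose mean FPKM reached 5 in some stage were named by rule, and Dpysl3 and Rnd2 were added after their values were seen. The gene set and all lists were chosen with earlier results of these data known. Python 3.11.15, numpy 2.4.6 and pandas 2.3.3 were used. With at least 8745161 counts per sample, counting error is small except for genes of few counts such as Plxnb3, at 3 to 13 per sample.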

Additional observations from a re-analysis of the deposited data

How the results depend on the processing

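Of the 35 calls, all 35 held with DESeq2, DESeq2 size factors, no filter on low counts and the replicate block, and 33 with library totals. Of the 35, limma kept 20 on log2(FPKM + 1), a scale that shrinks low genes, and 33 on log2(FPKM + 0.1). Over the 17 refits 544 values of called genes kept their call and 51 lost it, each in the same direction. The NOISeq criterion shared 16 of the 35 calls and lost 19. Counts that moved by over 1.5 times are grouped by setting, and their cause was not tested except where the setting itself removes a threshold. Without the fold-change minimum, genes higher than at E10.5 numbered 14 (E14.5) and 16 (E16.5), with 10 rising between the cornea stages, genes lower at E16.5 numbered 10 and 8 against E10.5 and E14.5, and pathway genes called 45, 50 and 26. With limma on log2(FPKM + 1), 1 gene was lower at E14.5, 0 were higher and 2 lower between the cornea stages, and 3 pathway genes were called there. Limma restricted by mean FPKM gave 1, 0, 2 and 4. Where limma called 0 rising between the cornea stages, edgeR and DESeq2 each called 3, and 8 were higher in limma at an unadjusted p under 0.05 with no fold-change minimum. By the NOISeq criterion 0 were lower at E14.5 and 3 at E16.5 than at E10.5, and 0 rose and 1 fell between the cornea stages, where edgeR and DESeq2 each called 4, 6, 3 and 5. With library totals 1 rose there. With each library left out, genes lower at E14.5 ranged from 2 to 5 and genes rising between the cornea stages from 1 to 5. Calls gained when 1 library was left out, beside those given above, were *Sema3a* at E16.5 against E10.5 (1.004 without E10.5 replicate 3), *Sema7a* at E14.5 (-1.23 without E14.5 replicate 3), *Sema4f* at E14.5 (1.17 without E10.5 replicate 2), *Nrp2* at E16.5 against E10.5 (-1.11, -1.07 and -1.04 without E10.5 replicate 3, E16.5 replicate 2 and E16.5 replicate 3), *Plxnc1* there (-1.02 and -1.09 without E16.5 replicates 2 and 3) and, without E14.5 replicate 1, *Sema3b*, *Sema3g* and *Plxnb3* between the cornea stages (1.01, -1.19 and 1.82). *Sema3g* was also called there with library totals, at -1.17.

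Signs turned only for differences that were not called. Between the cornea stages library totals gave -0.036 for *Sema3d* and -0.093 for *Plxna1*, and limma gave -0.087 for *Plxna1* with a pseudocount of 1, with or without the filter on mean FPKM, and -0.090 with 0.1. With a library left out, E14.5 against E10.5 ranged for *Sema4d* from -0.19 to 0.23, for *Sema6a* from -0.12 to 0.14, for *Sema6c* from -0.040 to 0.15, for *Sema6d* from -0.068 to 0.25 and for *Plxnb3* from -0.90 to 0.48, *Plxna4* at E16.5 against E10.5 from -0.24 to 0.0083 and *Sema3d* between the cornea stages from -0.11 to 0.43.

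Each stage has replicates 1 to 3, and deviations from the stage means correlated at -0.0341 on average for same-numbered samples (-0.256 to 0.216) and 0.0178 for others. Between the cornea stages same-numbered samples correlated at 0.216, 0.0759 and 0.0947, and others at -0.168 to 0.109. With 3 samples per stage these values cannot settle whether the numbers pair the samples. With the replicate block, the calls numbered 9 up and 4 down (E14.5), 8 and 7 (E16.5) and 3 and 5 between the cornea stages. The added call was *Nrp2* at -1.02 (edgeR, Benjamini-Hochberg adjusted p = 0.00518). Depth limits the E16.5 values of *Sema6b*, on 6 to 11 counts per sample, of *Sema7a*, on 4 to 7, of *Sema5b*, on 9 to 14, and of *Sema3g*, on 9 to 29.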

Other observations

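Marker genes of the other cell types that the dissections could hold took varied courses. Of 10 periocular crest markers, 2 were higher and 4 lower than in the pNC at both cornea stages, with summed FPKM of 424 to 473, 520 to 799 and 412 to 498 at the successive stages. Of 8 skeletal muscle markers 7 were tested and all 7 were lower at both cornea stages, where *Myod1*, *Myog*, *Myf5* and *Myf6* were at 0 and the sums were 2.48 to 4.20 and 0.650 to 1.60, against 29.1 to 30.0 at E10.5. Of 7 embryonic red cell markers 5 were lower in the E14.5 cornea and 6 in the E16.5 cornea, with sums of 5053 to 7902, 1824 to 2346 and 649 to 1358, and globin copies can share reads. Of 12 optic cup and retina markers 8 were tested, and 1 was higher and 3 lower in the E14.5 cornea and 5 lower in the E16.5 cornea, with sums of 59.3 to 88.5, 60.7 to 108 and 30.0 to 32.7, *Atoh7* being at 0 at E16.5. Of 11 lens markers 5 were tested and were higher at both cornea stages, with sums of 2.24 to 6.49, 31.1 to 46.9 and 48.2 to 53.9. Most of the cornea sums was *Cryab*, at a mean FPKM of 2.60 ± 1.43, 29.2 ± 8.87 and 45.1 ± 3.35. At 0 were *Cryga*, *Crygb* and *Lim2* at E10.5, *Crygb* at E14.5, and *Crygc* and *Lim2* at E16.5. Of 10 myeloid markers 2 were higher at E14.5, with sums of 58.4 to 67.7, 90.7 to 121 and 62.0 to 75.5. Of 8 Schwann and glial crest markers 1 was higher and 5 lower in the E14.5 cornea, 2 and 4 in the E16.5 cornea, with sums of 60.2 to 78.1, 25.7 to 46.6 and 75.2 to 112. Most of the E16.5 sum was *Mal* and *Erbb3*, at a mean FPKM of 53.1 ± 17.5 and 23.0 ± 3.96. *Sox10* and *Fabp7* went from 14.3 ± 3.27 and 33.9 ± 3.69 at E10.5 to 2.40 ± 0.585 and 1.95 ± 0.466 at E16.5.

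The deposited transcript length, which RSEM weights by the isoforms it assigns, varied among samples for 9 of the 31 genes. For *Sema4a* it was 3132 ± 23.0, 3186 ± 30.7 and 3217 ± 12.1 bases (SD, n = 3) at the successive stages, without a test.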
